A study of Sus scrofa with 8 samples.

Results

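The HOXB cluster is a row of homeobox genes on pig chromosome 12. Its 10 members, HOXB1 to HOXB9 and HOXB13, were taken from the deposited count table by gene symbol, with 1 row per Ensembl gene, out of 31907 genes in all. They were followed in 8 skin biopsies of Yorkshire swine, wild type per the labels, from 2 animals called pig 14 and pig 13. The injected group held 4 biopsies, sites 12d and 12c of pig 14 and sites 12e and 12c of pig 13, which had received 200 ng IL-15 in 100 µl saline into the dermis 3 h before sampling. IL-15 is a cytokine that sustains natural killer and memory T cells. The control group held 4 biopsies that received no injection, 7e and 6b in pig 14 and 7b and 6b in pig 13. Both groups thus hold 2 biopsies of each animal, and a p-value below describes the spread among sites of these 2 pigs.

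HOX genes encode transcription factors that bind DNA through a homeodomain and mark position along the body axis. In each of the A, B, C and D clusters the genes lie in the order in which they are used from head to tail, so that low-numbered members are anterior and high-numbered members posterior. Dermal fibroblasts of adult skin keep a HOX pattern that differs between body sites, and keratinocytes, vessels and blood cells also express HOX genes. HOX proteins bind DNA together with cofactors of the PBX and MEIS families. In embryos retinoic acid switches on anterior members, and Polycomb complexes keep unused members silent.

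Total counts were 28471089 to 36070107 per injected and 28730579 to 33567610 per control biopsy. The tissue label was checked on marker genes. Summed over 11 keratinocyte markers the level in CPM (counts divided by the TMM-scaled library size, at a common depth) was 15720 to 25870 CPM in injected skin, against 13870 to 41350 CPM in controls. Over 10 fibroblast markers it was 82110 to 197200 CPM in injected skin, against 23140 to 199000 CPM in controls. The lowest fibroblast and the highest keratinocyte sum both belonged to the pig 13 control biopsy from site 7b, which stands apart from the other 3 controls. Every injected site bore the number 12 and every control site the number 6 or 7, so body position and injection cannot be told apart, and no site received saline alone. In bulk tissue, fewer cells of a type and less RNA per cell also cannot be told apart.

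All 10 members lie on the minus strand of chromosome 12 in Sscrofa11.1 and are annotated as protein-coding genes. HOXB1 (ENSSSCG00000017532) lies at 24784953 to 24786377, HOXB2 (ENSSSCG00000017533) at 24796533 to 24799536 and HOXB3 (ENSSSCG00000017534) at 24804647 to 24806783. HOXB4 (ENSSSCG00000017535) follows at 24830453 to 24832534, HOXB5 (ENSSSCG00000017540) at 24845225 to 24847845 and HOXB6 (ENSSSCG00000017539) at 24849741 to 24852488. HOXB7 (ENSSSCG00000017538) lies at 24861174 to 24864620, HOXB8 (ENSSSCG00000017537) at 24865839 to 24868619, HOXB9 (ENSSSCG00000039193) at 24872662 to 24880134 and HOXB13 (ENSSSCG00000017541) at 24947728 to 24950637. From the start of HOXB1 to the end of HOXB13 they span 165.7 kb. HOXB1 to HOXB9 fill 95.2 kb of this, and 67.6 kb without a HOXB gene separate HOXB9 from HOXB13. Reads were counted over the exons of each gene, 2 exons in every member except HOXB3, which has 3. The counted lengths ran from 906 bases for HOXB1 to 4815 bases for HOXB9. HOXB8 shares 11 exonic bases with CALCOCO2, an autophagy receptor gene annotated on the opposite strand. CALCOCO2 also spans HOXB9 and HOXB13 but shares no exonic base with them. Reads of such overlaps cannot be assigned with certainty, because no source used here states a strand setting for the counting. The counted HOXB3 model spans 2.1 kb, whereas the RefSeq gene of the same build spans 24.4 kb, and the counted HOXB8 model spans 2.8 kb against 13.7 kb in RefSeq. HOXB5 spans 2.6 kb as counted against 4.4 kb in RefSeq, HOXB6 2.7 kb against 3.8 kb and HOXB2 3.0 kb against 3.7 kb. A level per kilobase of these genes therefore depends on the gene model.

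Skin of these pigs expressed HOXB2 to HOXB9, and the outermost members HOXB1 and HOXB13 were nearly silent. Levels between genes are compared as RPKM, which is CPM per kilobase of counted length. HOXB3 had the highest mean over the 8 biopsies, 4.43 ± 1.36 RPKM (SD, n = 8), followed by HOXB2 with 3.71 ± 1.18 RPKM and HOXB7 with 3.28 ± 0.715 RPKM. HOXB6 followed with 2.35 ± 0.828 RPKM, HOXB4 with 1.96 ± 0.567 RPKM and HOXB9 with 1.78 ± 0.502 RPKM. HOXB5 and HOXB8 were far lower, at 0.304 ± 0.118 and 0.205 ± 0.0764 RPKM. By the counted gene models, the low level was thus not at the outer ends alone. HOXB5 lies between the well expressed HOXB4 and HOXB6, and HOXB8 between HOXB7 and HOXB9. The counted models of HOXB5 and HOXB8 both span less than their RefSeq genes.

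Most neighbours in this order were not separated by more than the spread between biopsies. HOXB3 exceeded HOXB2 in 7 of 8 biopsies, with a ratio of RPKM between 0.825 and 1.68. HOXB2 exceeded HOXB7 in 4 of 8 biopsies, namely all 4 of pig 14, and HOXB7 was above HOXB2 in all 4 of pig 13. HOXB7 exceeded HOXB6 in 7 of 8, HOXB6 exceeded HOXB4 in 6 of 8 and HOXB4 exceeded HOXB9 in 6 of 8 biopsies. The step from HOXB9 down to HOXB5 held in 8 of 8 biopsies, with a ratio between 3.06 and 10.6. HOXB5 was above HOXB8 in 6 of 8 biopsies. By CPM, without division by length, HOXB9 ranked first with a mean of 8.57 CPM, since its counted length is the longest.

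**Figure D1:**
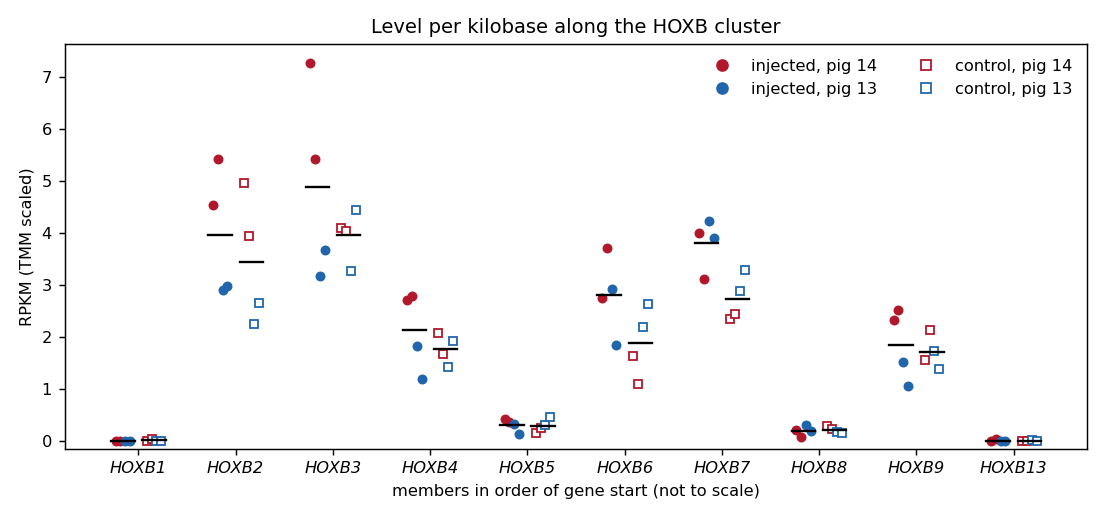
Level of each HOXB member in RPKM (vertical axis) in the order of gene start (horizontal axis), with filled circles for injected and open squares for control biopsies, red for pig 14 and blue for pig 13, and a line at each group mean. HOXB2, HOXB3, HOXB4, HOXB6, HOXB7 and HOXB9 lie above 1 RPKM in all 8 biopsies, HOXB5 and HOXB8 below 0.5 RPKM, and HOXB1 and HOXB13 at or near 0.

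HOXB1, which in mouse specifies part of the hindbrain, had 0 counts in all 4 injected biopsies and in 3 of 4 controls, with 1 count at site 6b of pig 14. HOXB13, the most posterior member, had 2 counts at the injected site 12c of pig 14 and 1 count at the control site 7b of pig 13, and 0 in the other 6 biopsies. A count of 0 allows a level of up to 0.0832 to 0.105 CPM at the depth of these biopsies, and this covers counting error only. The 1 and 3 counts summed over 8 biopsies do not show a difference between groups in either direction. Both genes were below the minimum of 10 counts used for testing, so 8 of the 10 members were tested.

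No HOXB member was called higher or lower in injected than in control biopsies. In edgeR's quasi-likelihood test with pig in the model, 0 of the 8 tested members passed an adjusted p of 0.05, where 0.0352% of the 19862 tested genes did. DESeq2 called 0 of the 7 members to which it gave an adjusted p (HOXB8 had none), against 0.31% of genes. No member had all injected biopsies above or all below the controls, where 1.15% and 0.916% of tested genes did. At an unadjusted p under 0.05 edgeR had 1 member, HOXB7, against 4.54% of all tested genes. The log2 fold change was above 0 in 7 of the 8 tested members and in 48.2% of all tested genes. Its median was 0.21 over the 8 tested members and -0.01 over all tested genes, and within pig 13 alone the median of the 8 was -0.08. Values of marker genes of other skin cells stand beside these. The 8 adipocyte markers all had a log2 fold change above 0 (median 0.82, 0 called). Their sum was 3100 and 792.5 CPM in pig 14 and 2615 and 2237 CPM in pig 13 after injection, against 3433 and 1753 CPM in pig 14 and 732 and 729 CPM in pig 13 controls. Of 11 keratinocyte markers, 4 had a log2 fold change above 0, 4 were lower at an unadjusted p under 0.05 and 0 were called (median -0.38). Of 10 fibroblast markers, 7 had a log2 fold change above 0 and 0 were called (median 0.24). Endothelial and skeletal muscle markers each had a median of 0.07, leukocyte markers of -0.04 and melanocyte markers of -0.05, with 0 called. At an unadjusted p under 0.05 in edgeR, 2 of 8 endothelial and 1 of 7 skeletal muscle markers were higher. No fibroblast, adipocyte, leukocyte or melanocyte marker had such a p. The part of these markers in the HOXB values was not tested.

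HOXB7, a trunk member of the cluster, had the smallest p. It had 5.36 and 4.19 CPM at sites 12d and 12c of pig 14 and 5.69 and 5.25 CPM at sites 12e and 12c of pig 13 after injection. The controls had 3.14 and 3.28 CPM at sites 7e and 6b of pig 14 and 3.88 and 4.41 CPM at sites 7b and 6b of pig 13. Within both pigs the injected biopsies lay above both controls, a pattern shown by 3.11% of all tested genes, while across pigs the lowest injected value fell below the highest control. The means were 5.12 ± 0.647 CPM in injected skin, against 3.68 ± 0.584 CPM in controls (SD, n = 4 each). HOXB7 had a log2 fold change of 0.48 ± 0.16 (SE, 95% interval 0.13 to 0.84, adjusted p = 0.964 in edgeR, unadjusted p = 0.0127).

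HOXB6, which lies between HOXB5 and HOXB7, had the largest log2 fold change of the 8 when all biopsies were used. It had 4.71 and 6.36 CPM at sites 12d and 12c of pig 14 and 5.03 and 3.18 CPM at sites 12e and 12c of pig 13 after injection. Its controls had 2.79 and 1.87 CPM at sites 7e and 6b of pig 14 and 3.77 and 4.53 CPM at sites 7b and 6b of pig 13. The low values were thus those of the pig 14 controls, and in pig 13 the groups overlapped. The log2 fold change was 0.59 ± 0.29 (SE, 95% interval -0.05 to 1.24, adjusted p = 0.964 in edgeR). It was 0.36 without the control site 6b of pig 14 and 0.40 without the injected site 12c of pig 14, below HOXB7 with 0.48 and 0.54 in the same fits.

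HOXB2, HOXB3 and HOXB4 had smaller log2 fold changes than HOXB6 and HOXB7. HOXB2, which takes part in hindbrain patterning in mouse, averaged 8.67 ± 2.70 CPM in injected skin, against 7.56 ± 2.72 CPM in controls (log2 fold change 0.21 ± 0.14, 95% interval -0.10 to 0.52). HOXB3 averaged 6.32 ± 2.41 CPM in injected skin, against 5.13 ± 0.637 CPM in controls (0.24 ± 0.21, interval -0.22 to 0.70). HOXB4, known for expanding blood stem cells when overexpressed, averaged 2.67 ± 0.955 CPM in injected skin, against 2.23 ± 0.368 CPM in controls (0.20 ± 0.24, interval -0.33 to 0.73). The edgeR adjusted p was 0.964 for each of these 3 genes. Their intervals include 0 and reach up to 1.43-fold for HOXB2, 1.62-fold for HOXB3 and 1.66-fold for HOXB4. With single biopsies left out the log2 fold change was 0.075 to 0.41 for HOXB3 and 0.071 to 0.38 for HOXB4. The lowest came without the injected site 12d of pig 14 for HOXB3 and without the control site 6b of pig 14 for HOXB4.

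HOXB9, the most posterior expressed member, averaged 8.93 ± 3.32 CPM in injected skin, against 8.22 ± 1.53 CPM in controls (SD, n = 4 each). The injected values were 11.2 and 12.1 CPM in pig 14 and 7.30 and 5.07 CPM in pig 13, and the control values were 7.52 and 10.3 CPM in pig 14 and 8.36 and 6.71 CPM in pig 13. The groups overlapped, with the highest values at the injected sites of pig 14 and the lowest at the injected site 12c of pig 13. The log2 fold change was 0.05 ± 0.20 (SE, 95% interval -0.38 to 0.49, adjusted p = 0.984 in edgeR).

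HOXB5 and HOXB8 had few reads, 8 to 29 and 4 to 19 counts per biopsy. HOXB5 averaged 0.605 ± 0.242 CPM in injected skin, against 0.564 ± 0.247 CPM in controls, with a log2 fold change of 0.08 ± 0.46 (95% interval -0.94 to 1.10). HOXB8 averaged 0.396 ± 0.195 CPM in injected skin, against 0.413 ± 0.122 CPM in controls, with a log2 fold change of -0.04 ± 0.47. As folds the 95% intervals were 0.52 to 2.14 for HOXB5 and 0.469 to 2.01 for HOXB8, and these biopsies cannot exclude a difference within them.

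**Figure D2:**
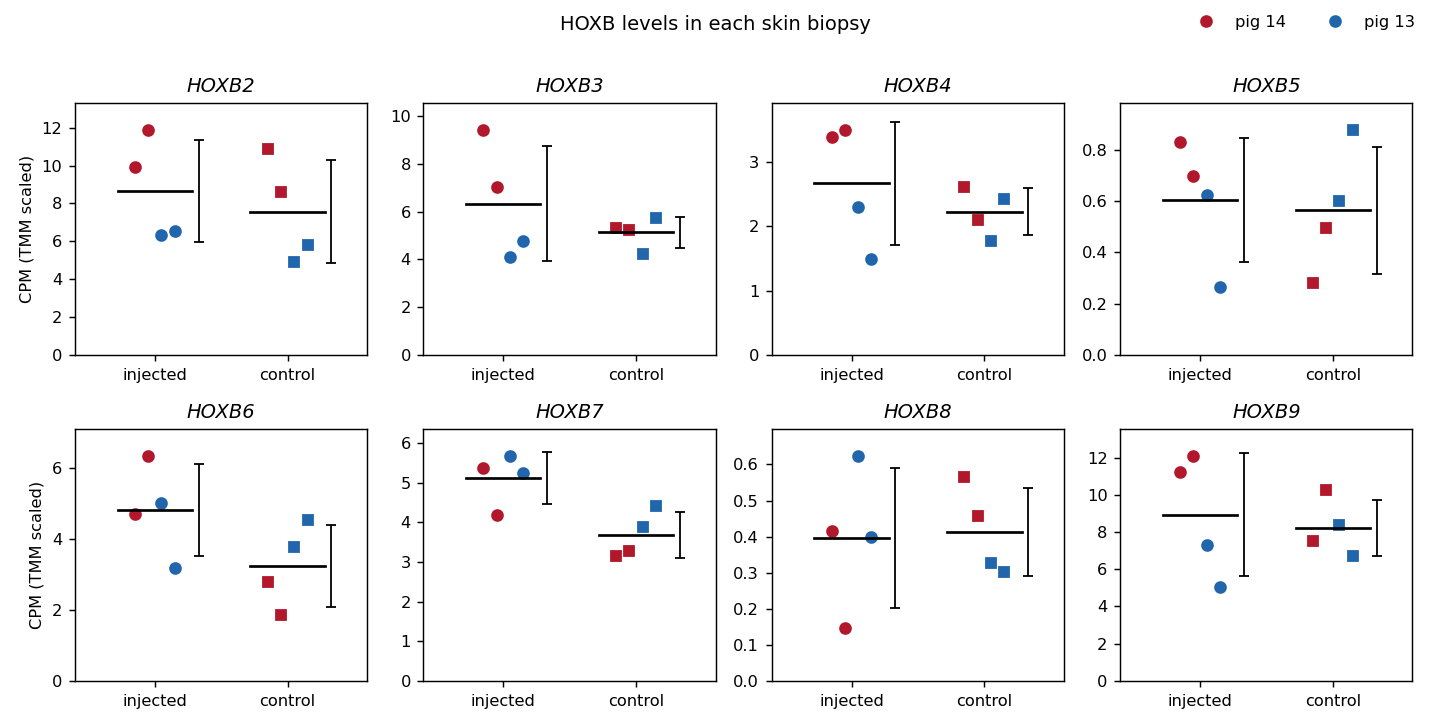
CPM after TMM scaling (vertical axes, each from 0) of the 8 tested HOXB members in injected and control biopsies (4 points each), red for pig 14 and blue for pig 13, with a line at the mean and a bar of 1 SD beside it. The groups overlap in every panel, and HOXB7 is the panel in which injected exceeds control within both pigs.

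The groups were then compared within each animal. In pig 14 both injected biopsies lay above both controls for 6 of the 8 tested members, HOXB3, HOXB4, HOXB5, HOXB6, HOXB7 and HOXB9, where 20.5% of all tested genes did so. In pig 13 this held for HOXB2, HOXB7 and HOXB8, 3 of the 8, where 18.2% of tested genes did so. HOXB8 lay lower at both injected sites of pig 14 and higher at both of pig 13, an opposition shown by 7.47% of tested genes. All members were read from the same 2 biopsies a group. In pig 14 alone, with 2 biopsies a group, HOXB6 had a log2 fold change of 1.25 ± 0.30 (SE, adjusted p = 0.372 in edgeR), HOXB3 of 0.65 ± 0.22 and HOXB5 of 0.98 ± 0.56. In pig 13 alone these 3 genes had -0.01 ± 0.30, -0.16 ± 0.27 and -0.74 ± 0.60.

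The test of this difference between pigs did not pass for any member. An interaction of pig and treatment was called for 0 of the 8 members by edgeR and for 0 of the 6 to which DESeq2 gave an adjusted p (HOXB5 and HOXB8 had none), against 0% of all tested genes by edgeR and 0.512% by DESeq2. At an unadjusted p under 0.05 edgeR had 2 members, HOXB6 and HOXB3, against 8.22% of tested genes. The interaction (pig 14 minus pig 13) was above 0 in 6 of the 8 members and in 49.7% of tested genes. HOXB6 had an interaction of 1.26 ± 0.45 on the log2 scale (SE, adjusted p = 0.521 in edgeR) and HOXB3 of 0.81 ± 0.35 (adjusted p = 0.591 in edgeR). In pig 14 the fibroblast marker sum was 142500 and 197200 CPM at sites 12d and 12c after injection and 173900 and 199000 CPM at control sites 7e and 6b. In pig 13 it was 82110 and 114200 CPM at sites 12e and 12c after injection, and 23140 and 80820 CPM at control sites 7b and 6b. The part of this sum in the HOXB values was not tested.

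**Figure D3:**
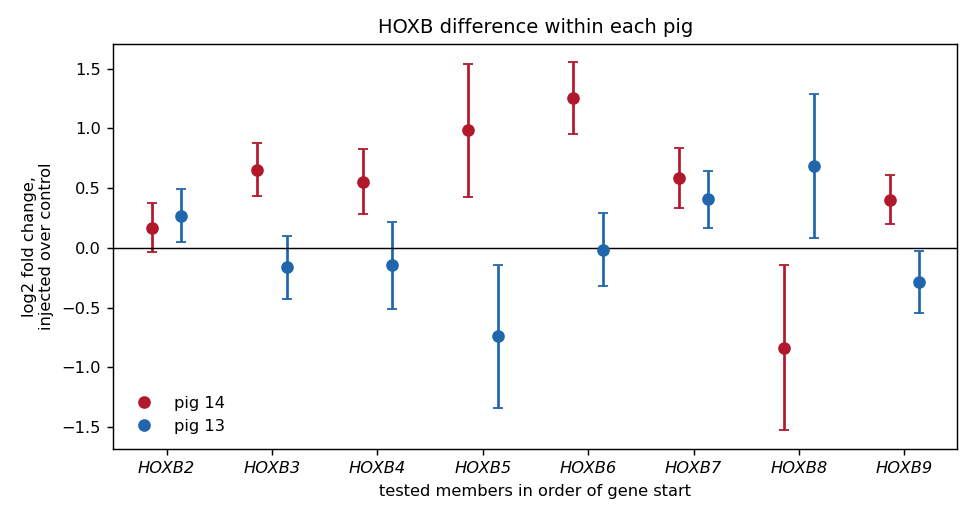
Log2 fold change of injected over control (vertical axis) of the 8 tested HOXB members, fitted in pig 14 alone (red) and in pig 13 alone (blue) from 2 biopsies a group, with bars of 1 SE. HOXB2 and HOXB7 are above 0 in both pigs, HOXB6 is at 1.25 in pig 14 and -0.01 in pig 13, and HOXB8 is below 0 in pig 14 and above 0 in pig 13.

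The animals differed in HOXB2, and no other member passed the test between them. HOXB2 had 9.93 and 11.9 CPM at injected and 10.9 and 8.63 CPM at control sites of pig 14, against 6.34 and 6.53 CPM at injected and 4.92 and 5.80 CPM at control sites of pig 13. All 4 biopsies of pig 14 were above all 4 of pig 13, as for 9.87% of tested genes, and no member had all of pig 14 below pig 13, as 8.73% did. HOXB2 was 1.76-fold higher in pig 14 (log2 fold change 0.81 ± 0.14, SE, adjusted p = 0.00598 in edgeR and 1.24e-05 in DESeq2). It was the only member called by edgeR, 1 of 8, where 10.7% of all tested genes were called between the pigs, 6.39% higher and 4.34% lower in pig 14. DESeq2 called 1 member too, against 15.8% of genes, and 3 members had an unadjusted edgeR p under 0.05, against 26.7% of genes. The members' share was therefore near the background. The call compares 2 animals and says nothing of others.

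The sign was positive in 4 of the 8 members and in 49.7% of tested genes. HOXB3, HOXB4 and HOXB9 had log2 fold changes of 0.49 ± 0.21, 0.52 ± 0.24 and 0.58 ± 0.19 in pig 14 over pig 13, with adjusted p of 0.168, 0.199 and 0.0885 in edgeR. HOXB5, HOXB6, HOXB7 and HOXB8, in the middle of the cluster, had -0.04 ± 0.46, -0.18 ± 0.29, -0.28 ± 0.16 and -0.05 ± 0.47, with adjusted p from 0.302 to 0.967. With control site 7b of pig 13 left out, HOXB9 also passed, with 0.71 (adjusted p = 0.0411 in edgeR) and 2 members called. When libraries were scaled by total counts only, the median of all tested genes moved to -0.21 and the calls between the pigs to 921 higher and 3936 lower in pig 14, in place of 1270 and 863, and HOXB2 then had 0.60 (adjusted p = 0.0143 in edgeR).

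Marker genes of skin cells differed between the same animals. The sum of 10 fibroblast markers was 142500 to 199000 CPM in pig 14 and 23140 to 114200 CPM in pig 13, and none of these markers was at 0 in any biopsy. The sum of 11 leukocyte markers was 441 to 696 CPM in pig 14 and 288 to 432 CPM in pig 13, also without a marker at 0. In edgeR 2 of the 10 fibroblast and 5 of the 11 leukocyte markers were called higher in pig 14, and none lower, where 6.39% of all tested genes were called higher. The sum of 11 keratinocyte markers went the other way, with 13870 to 21090 CPM in pig 14 and 20920 to 41350 CPM in pig 13, a median log2 fold change of -0.57 and 1 marker called lower in pig 14. The fibroblast and leukocyte sums, like HOXB2, did not overlap between the pigs, where 9.87% of single tested genes were higher in all biopsies of pig 14. Adipocyte markers had a median log2 fold change of 0.83, with 0 called and sums that overlapped. Endothelial, skeletal muscle and melanocyte markers had medians of -0.01, 0.26 and 0.09, with 0 called. The part of these markers in the HOXB2 difference was not tested.

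**Figure D4:**
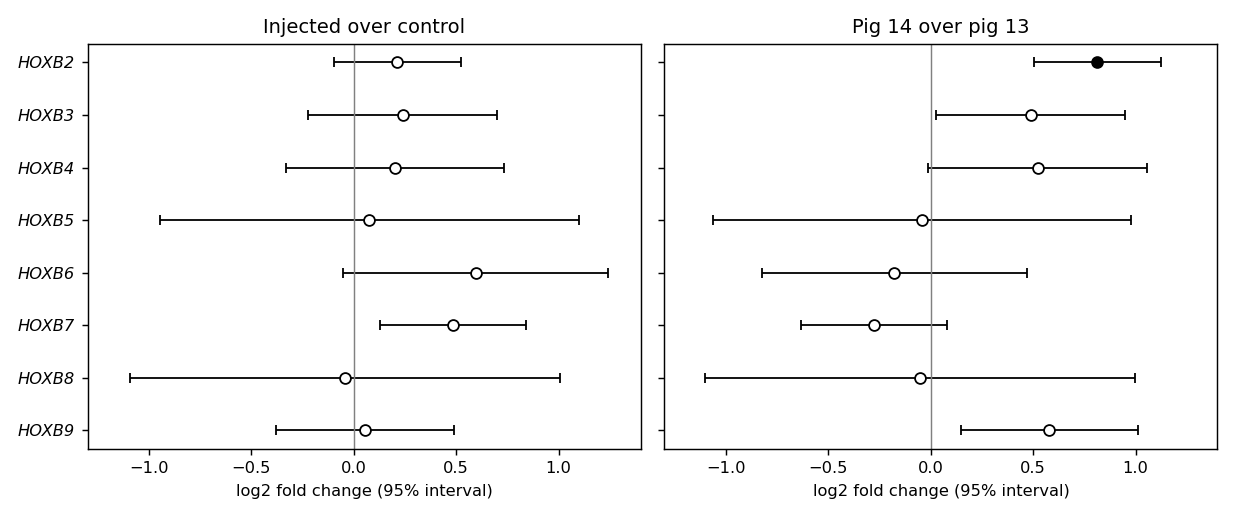
Log2 fold change (horizontal axes, with 95% intervals) of the 8 tested HOXB members for injected over control biopsies (left) and for pig 14 over pig 13 (right), from the same edgeR fit of 8 biopsies. The filled point marks HOXB2 in pig 14 over pig 13, at 0.81 with an adjusted p of 0.00598, and no point is filled on the left.

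Members next to each other had a higher median correlation across biopsies than the other pairs. Over the 8 biopsies, which come from 2 animals, Pearson's r of log2 CPM ranged from -0.51 for HOXB6 and HOXB8 to 0.79 for HOXB3 and HOXB4 over the 28 pairs of tested members, with a median of 0.25. The 7 pairs adjacent in the order of tested members had a median r of 0.60 and the 21 other pairs one of 0.13. With the mean of each pig removed, these medians were 0.60 and 0.38, and the highest r was 0.90, for HOXB4 and HOXB6. Without removal of the pig means, HOXB8, with the fewest reads of the tested members, was in the 5 pairs with the lowest r. These are descriptions across 8 biopsies, and depth and pig are shared by all pairs.

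HOXB3, the member with the highest RPKM, was compared with all 19854 other tested genes over the 8 biopsies. The genes most like it by Pearson's r of log2 CPM were SPINDOC (r = 0.96), TMEM234 (0.96), CDNF, a secreted neurotrophic factor (0.95), MST1, a hepatocyte growth factor-like protein (0.94), and ALKBH4, a demethylase (0.94). Of all genes compared, 23 had r above 0.9. These 5 are the highest of 19854 correlations over 8 biopsies. How many genes reach such an r by chance was not tested, so they are not shown to vary with HOXB3. None of the 5 was called between injected and control biopsies, with adjusted p from 0.964 to 0.988 in edgeR.

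Each HOXB gene was then set against its HOXA paralogue of the same number within the same biopsy. The log2 ratio of the CPM values, after adding 0.1 CPM to each, was available for 6 paralogue numbers with both genes tested (2, 3, 4, 5, 7 and 9). The CPM ratio carries the lengths of both genes, which are the same in every biopsy, so it serves to compare biopsies and not the levels of the 2 genes. For HOXB9 over HOXA9 the injected biopsies had log2 ratios of -1.12 and -1.19 in pig 14 and -1.08 and -1.85 in pig 13. The controls had 1.04 and 2.34 in pig 14 and 1.42 and 1.14 in pig 13. The groups did not overlap. Per length, HOXB9 was below HOXA9 in all 4 injected biopsies, at 1.05 to 2.51 RPKM beside 7.56 to 13.5 RPKM. In the controls HOXB9 had 1.56 and 2.13 RPKM in pig 14 and 1.74 and 1.39 RPKM in pig 13, and HOXA9 had 1.75 and 0.947 RPKM in pig 14 and 1.49 and 1.46 RPKM in pig 13. HOXB9 was thus the higher of both genes per length in 2 of 4 controls. The mean log2 ratio was -1.31 ± 0.362 in injected and 1.49 ± 0.592 in control biopsies (SD, n = 4 each), a difference of -2.80 (exact two-sided permutation test, p = 0.0286). This p is the smallest that 70 relabellings of the biopsies allow, and adjusted over 6 pairs it is 0.171, which a single pair at that smallest p cannot better. These relabellings exchange biopsies between the pigs. The same permutation test with the 36 relabellings within each pig gave p = 0.0556, the smallest these allow (0.333 adjusted). HOXA9 had a log2 fold change of 2.85 ± 0.21 (SE, adjusted p = 0.000904 in edgeR) and lay at 15.5 to 27.7 CPM in injected skin, against 1.95 to 3.60 CPM in controls, while the log2 fold change of HOXB9 was 0.05.

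The other 5 ratios overlapped between groups. For HOXB5 over HOXA5, of which HOXB5 was also the lower per length in every biopsy, the mean log2 ratio was -6.25 ± 0.448 in injected and -5.43 ± 0.951 in control biopsies. For HOXB2 over HOXA2, of which HOXB2 was also the higher per length in every biopsy, it was 2.86 ± 0.201 in injected and 2.68 ± 0.627 in control biopsies. The differences of injected minus control for the paralogues 2, 3, 4, 5 and 7 were 0.18, -0.05, -0.29, -0.83 and 0.08, with exact permutation p from 0.20 to 0.857, before adjustment. In edgeR 2 of 10 tested HOXA genes, 1 of 7 HOXC genes and 0 of 6 HOXD genes were called higher in injected biopsies, and none lower, where 0.0352% of all tested genes were called. Beside HOXA9 these were HOXA10 (log2 fold change 6.28 ± 0.52, adjusted p = 0.000212 in edgeR) and HOXC10 (3.61 ± 0.31, adjusted p = 0.0014 in edgeR), both posterior members. DESeq2 also called HOXA5, HOXA11 and HOXA13 higher, with adjusted p of 0.0151, 0.000242 and 0.0281, where it called 0.31% of genes. Their log2 fold changes in edgeR were 0.87, 2.55 and 1.78, with adjusted p of 0.689, 0.559 and 0.607. At an unadjusted edgeR p under 0.05 there were 6 of the 10 HOXA genes, against 4.54% of tested genes. The median log2 fold change was 0.68 over the tested HOXA, -0.08 over the HOXC and -0.07 over the HOXD genes, beside 0.21 over the tested HOXB genes.

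**Figure D5:**
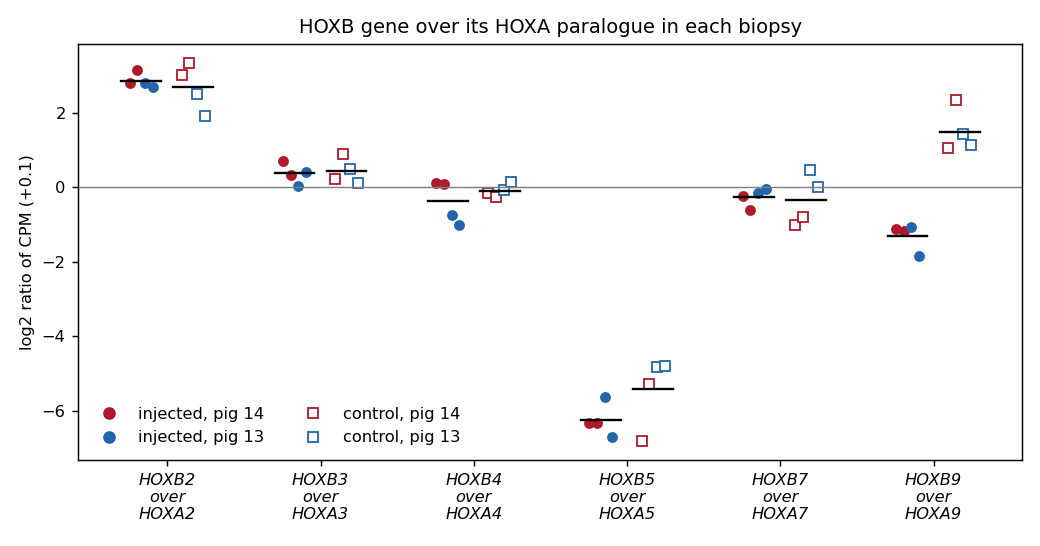
Log2 ratio of the CPM (plus 0.1) of a HOXB gene over that of its HOXA paralogue (vertical axis) in each biopsy, with filled circles for injected and open squares for control biopsies, red for pig 14 and blue for pig 13, and a line at each group mean. For HOXB9 over HOXA9 the injected biopsies lie between -1.85 and -1.08 and the controls between 1.04 and 2.34, and the other 5 pairs overlap.

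As a share of the RPKM summed over all 38 HOX genes with a symbol, the HOXB cluster held 16.0% to 19.6% in injected and 18.2% to 21.1% in control biopsies. The summed RPKM of the cluster was 19.99 ± 4.57 in injected skin, against 16.1 ± 1.32 in controls (SD, n = 4 each). HOXB7 held 13.3% to 16.5% of the HOXB sum in pig 14 and 19.4% to 26.1% in pig 13. The share of HOXB7 did not overlap between the animals, whereas the CPM of HOXB7 overlapped. In CPM 18.6% of tested genes did not overlap between the pigs. The share of HOXB7 depends on the other members too, and the HOXB sum was 15.9 to 24.2 RPKM in pig 14 and 14.3 to 17.2 RPKM in pig 13. Shares of the other members were not computed, so the values do not single out HOXB7.

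Of the genes between or beside the HOXB genes, CALCOCO2, TTLL6 and a pseudogene without a symbol, between HOXB3 and HOXB4, were tested. None was called in either comparison. Over all tested genes 0.0352% were called between injected and control biopsies and 10.7% between the pigs, so few genes cannot be told from this background. The pseudogene had 0.542 ± 0.151 CPM in injected skin, against 0.536 ± 0.239 CPM in controls. MIR10A, a microRNA gene between HOXB4 and HOXB5, had 0 to 4 counts per biopsy, and MIR196A-1, between HOXB9 and HOXB13, 0 to 2 counts. Such libraries are not made for small RNAs, so these counts say nothing of the mature microRNAs. CALCOCO2 had 69.5 ± 1.54 CPM in injected skin, against 71.4 ± 17.6 CPM in controls (log2 fold change -0.01 ± 0.12, adjusted p = 0.996 in edgeR), while HOXB8, with which it shares exonic bases, stayed below 0.7 CPM. TTLL6, a tubulin-modifying enzyme, had 0.713 ± 0.106 CPM in injected skin, against 0.642 ± 0.226 CPM in controls.

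The machinery that works with or upstream of HOX genes was not called either. Of the 10 tested cofactor genes of the PBX, MEIS and PKNOX families with the HOX-binding inhibitor geminin (GMNN), 0 were called between injected and control biopsies, and 1 had an unadjusted p under 0.05. The shares over all tested genes were 0.0352% called and 4.54% with an unadjusted p under 0.05, also for the lists that follow. The 3 with the smallest p were PKNOX2 (log2 fold change 0.30 ± 0.13), MEIS3 (0.32 ± 0.16) and PBX3 (-0.19 ± 0.12), each with an adjusted p of 0.964 in edgeR. Of 17 tested genes of retinoic acid and CDX inputs 0 were called and 0 had an unadjusted p under 0.05. CYP26B1, which degrades retinoic acid, had a log2 fold change of -0.38 ± 0.18, and ALDH1A1, which makes retinoic acid, -0.40 ± 0.25. Of 22 tested Polycomb and Trithorax genes 0 were called and 0 had an unadjusted p under 0.05, with 0.32 ± 0.15 for CBX2, 0.19 ± 0.10 for RING1 and -0.18 ± 0.10 for SUZ12, all subunits of Polycomb complexes. The medians of the 3 lists were 0.01, 0.08 and -0.01, beside -0.01 over all tested genes. DESeq2 gave an adjusted p of 0.998 for each of these 8 genes. Between the animals 3 of the 17 retinoic acid and CDX genes, 1 of the 22 Polycomb and Trithorax genes and 1 of the 7 HOXC genes were called, where 10.7% of all tested genes were. Of the 10 cofactor genes, the 10 tested HOXA genes and the 6 tested HOXD genes, 0 were called between the animals. RARG, a retinoic acid receptor, was called lower in pig 14 (log2 fold change -0.53, adjusted p = 0.0099 in edgeR). CRABP1, a retinoic acid carrier (1.21), the receptor RXRG (1.23), the histone demethylase KDM6A (0.48) and HOXC9 (0.58) were called higher there, with adjusted p of 0.00118, 0.02, 0.00413 and 0.0411 in edgeR.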

How the data were processed

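Skin RNA of 8 biopsies was analysed from the deposited files. Per the labels' protocols, total RNA was depleted of ribosomal RNA with RiboZero Gold. The submitters' processing notes name STAR 2.5.1a, featureCounts 1.4.6-p5 and the build Sscrofa11.1. The authors deposited whole-number counts per Ensembl gene, and per biopsy also CPM and RPKM, which equal the counts over the library total at a common depth and that value per kilobase of gene length. The file of the pig 13 control from site 7b held 607 genes, so all counts came from the series table, where 425 genes on several rows with equal counts were kept once.

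Genes were kept with filterByExpr (minimum count 10) and scaled by TMM in edgeR 4.0.16 (R 4.3.3). Printed CPM and RPKM are after this scaling. The quasi-likelihood test with robust estimation used treatment and pig, with Benjamini-Hochberg adjustment over 19862 genes and a threshold of 0.05. It was tested on simulated counts that held no difference between pigs, so this did not check how the test handles such a difference. DESeq2 1.42.0, other scalings, no filter, no pig term, single pigs and leaving out biopsies were alternatives. Correlations used edgeR's log2 CPM.

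Pig was a block because the labels name each animal. Deviations from group means correlated at 0.25 to 0.54 within and -0.49 to -0.28 between pigs. Each group was centred on its own mean, so the negative values between pigs follow from the positive ones within them. The members, gene lists and tests were chosen with earlier results of these data known. The named genes are the 10 members, the HOXA paralogues, symbols of the interval within 100 kb of the cluster, the called genes and 3 smallest p of the lists, and the 5 genes most like HOXB3; 1 of the genes so chosen is not reported here. Marker lists of adipocytes (729 to 3433 summed CPM over all biopsies), endothelium (609 to 963), skeletal muscle (13.0 to 20.3) and melanocytes (47.7 to 69.8, with TYRP1 and MLANA at 0 in some biopsies) were also summed. No sequence is shown, since none was used here.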

Additional observations from a re-analysis of the deposited data

Results flagged for a closer look

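The log2 ratio of HOXB9 over HOXA9 was -1.849 in the injected biopsy from site 12c of pig 13, far below the other 3 injected biopsies at -1.19 to -1.08. The gap to the nearest was 0.861 of the whole range of the group, above Dixon's critical value for 4 samples. HOXB9 had its lowest value of all 8 biopsies there, 5.07 CPM. Chance alone singles out about 1 in 20 such groups, and 28 groups were looked at.

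HOXB8 differed in opposite directions in the 2 animals. In pig 14 both injected biopsies, at 0.415 and 0.147 CPM, lay below both controls, at 0.565 and 0.458 CPM, and in pig 13 both injected biopsies, at 0.624 and 0.398 CPM, lay above both controls, at 0.328 and 0.302 CPM. The same kind of opposite order was seen in 7.47% of all tested genes. The interaction of pig and treatment was -1.525 on the log2 scale and was not called (adjusted p = 0.673 in edgeR). HOXB8 had 4 to 19 counts per biopsy.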

How the results depend on the processing

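No HOXB member was called between injected and control biopsies, and none in the interaction, under any setting run. Over all genes 7 were called higher and 0 lower, against 48 higher and 10 lower by DESeq2, 30 higher in pig 13 alone, and 13 higher and 1 lower in pig 14 alone. Leaving out a biopsy gave 3 to 19 higher and 0 to 1 lower: 19 higher without control site 7b of pig 13, 3 without injected site 12d or control site 6b of pig 14, and 4 without injected site 12c or control site 6b of pig 13. For HOXB2 to HOXB4, HOXB6 and HOXB7 no biopsy left out turned the sign of injected over control. With no replicate block, that is without pig in the model, 6 genes were called higher and 0 HOXB members. In pig 13 alone the sign turned for HOXB3 (-0.16), HOXB4 (-0.15), HOXB5 (-0.74), HOXB6 (-0.015), HOXB8 (0.69) and HOXB9 (-0.28). Leaving out single biopsies turned the sign of injected over control for HOXB5 (-0.23 to 0.46), HOXB8 (-0.34 to 0.30) and HOXB9 (-0.093 to 0.22), of pig 14 over pig 13 for HOXB5 (-0.42 to 0.27), HOXB6 (-0.44 to 0.059) and HOXB8 (-0.28 to 0.29), of the interaction for HOXB2 (-0.25 to 0.10), and of the ratio to HOXA for HOXB2 (-0.085 to 0.39), HOXB3 (-0.16 to 0.11) and HOXB7 (-0.15 to 0.34). Between pigs 1 to 2 members were called when a biopsy was left out (2 without control site 7b of pig 13), and HOXB9 then had 0.41 to 0.73. HOXB2 kept its call (0.60 to 0.87 over all settings). The HOXB9 to HOXA9 difference was -2.94 to -2.51 with 1 biopsy left out, and within-pig relabelling, with a smallest p of 0.0556, could not pass. By CPM 5 of 10 members held their RPKM rank. The cause was not tested for any of these. HOXB5 and HOXB8 had few counts and wide intervals, and HOXB1 and HOXB13 could not be tested.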
